A study of Saccharomyces cerevisiae with 59 samples.

Results

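The genes described here are those of budding yeast with long upstream intergenic regions. For each gene listed in the authors' tables, the gap was the distance on the R64 genome build from the gene's start to the end of the neighbouring listed gene on its upstream side, measured on its own strand, and genes with a gap over 1000 bp were kept. The first and last genes of the 16 chromosomes, 32 in all, were left out by the rule and given no gap. Of the 5558 genes with a gap, 829 (14.9%) passed the threshold and are called long-gap genes below. The other 4729 genes serve for comparison. The rule used positions only, and no measured value entered it.

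All cells were of the W303 background and MATa, with the auxotrophic and drug-resistance alleles ade2-1, his3-11,15, can1-100 and a mutant leu2 allele, with BAR1::TRP at the gene of the α-factor protease and with URA3::BrdU-Inc for uptake of the thymidine analogue BrdU. They were grown in YPD at 30 °C, held in G1 with α-factor (50 ng/mL, 2 h) and released, and samples were taken every 10 min through a pair of cell cycles for MNase-seq, in which micrococcal nuclease trims DNA that is not protected by protein, and for RNA-seq. The deposited tables held 15 aligned time points, the 0 min arrest and 10 to 140 min after release, and each column merged 2 replicates (59 libraries, of which RNA at 110 min had 1). All columns but RNA at 110 min were such merges and that one rests on a single library, so that no value below has a standard deviation and no test over replicates was possible. For 5590 genes the tables gave an RNA value, the entropy of nucleosome positions in the gene body (high where nucleosomes are disordered), a gene-body nucleosome score (high where nucleosomes are abundant and well placed), and a promoter subnucleosome score, a measure of small protected fragments such as those left by transcription factors. The number of fragments behind each value is unknown.

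In the compact genome of budding yeast most genes are controlled by a short stretch of DNA just ahead of the transcription start, made up of a nucleosome-depleted region, binding sites for transcription factors and often a TATA box. Genes with longer control regions are known among those that integrate many signals, such as the mating-type endonuclease HO, the flocculin FLO11 and the meiotic inducer IME1. In the cell cycle, the factors SBF and MBF activate late G1 genes through SCB and MCB elements, and forkhead factors and Mcm1 act on the mitotic cyclin genes.

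The median gap was 452.5 bp over all genes and 1525 bp over the long-gap genes. The long-gap genes lay around 570 distinct gaps, because 518 of them formed 259 divergent pairs that share their upstream region, so that values of such pairs are not independent of each other. In all, 524 long-gap genes (63.2%) had a divergent neighbour, against 50.4% of the other genes. Just inside the threshold were MNT2 and ADH4 with 1001 bp, and just outside were HEM4 with 998 bp and HIS2 with 997 bp. The longest gap, 42091 bp between RNH203 and RRT15, held the ribosomal DNA. KSS1, a MAP kinase of filamentous growth, had a gap of 14047 bp with Ty elements. VAM10 was a member by the rule although VPS5 runs through its gap of 1693 bp.

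A long gap between listed genes was often not empty. In the RefSeq annotation of the same build, the gaps of 230 long-gap genes held a tRNA gene, those of 189 a Ty element or long terminal repeat, those of 182 another protein-coding gene that the tables do not list, those of 57 another RNA gene and those of 6 a centromere. The remaining 432 genes (52.1%) had a gap without any such feature, called feature-free below. The longest of these, 7822 bp between YAL064C-A and YAL064W, lay near a chromosome end. The next were 6166 bp before RMD6, 3894 bp between the lactate permease gene JEN1 and SRY1, 3870 bp before YIR018C-A, 3851 bp before FLO10, and 3679 bp between HXT6 and HXT7. Origins of replication were annotated in the gaps of 119 long-gap genes (14.4%) and in those of 118 other genes (2.495%). Per length the distinct gaps did not stand far apart, with 66.2 origins per Mb in long gaps and 67.1 per Mb in the other gaps. Long-gap genes lay nearer to chromosome ends, with 78 (9.41%) within 30 kb of an end against 2.60% of the other genes. Of the 322 other genes with a long gap on the downstream side only, 8.70% lay within 30 kb of an end. The transcripts of long-gap genes had longer leaders, with a median of 71 bp from the listed transcription start to the start codon against 48 bp.

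Long gaps were spread unevenly over gene functions. Among genes of flocculins and other cell surface proteins, 19 of 27 with a gap were long-gap genes, among hexose transporters and related sugar genes 11 of 16, among transcription regulators of invasive growth, stress and mating type 31 of 53, and among other plasma membrane transporters 14 of 31. Genes of the M/G1 transition followed with 12 of 27, G1 cyclins and other G1/S genes with 10 of 25 and glycolytic and other highly expressed metabolic genes with 9 of 23. Cytosolic ribosomal protein genes (25 of 136) and G2/M genes (3 of 21) lay near the 14.9% of all genes. Of the 28 genes on the pheromone and mating list only PRM5 was long-gap. PRM8, a pheromone-regulated gene with a gap of 1301 bp, was not on that list. FLO11, on the list of cell surface genes, was listed as MUC1 and is therefore not counted in the 19 of 27. Its gap of 3618 bp passes the threshold. These lists were drawn up from textbook knowledge and were not tested for enrichment.

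**Figure D1:**
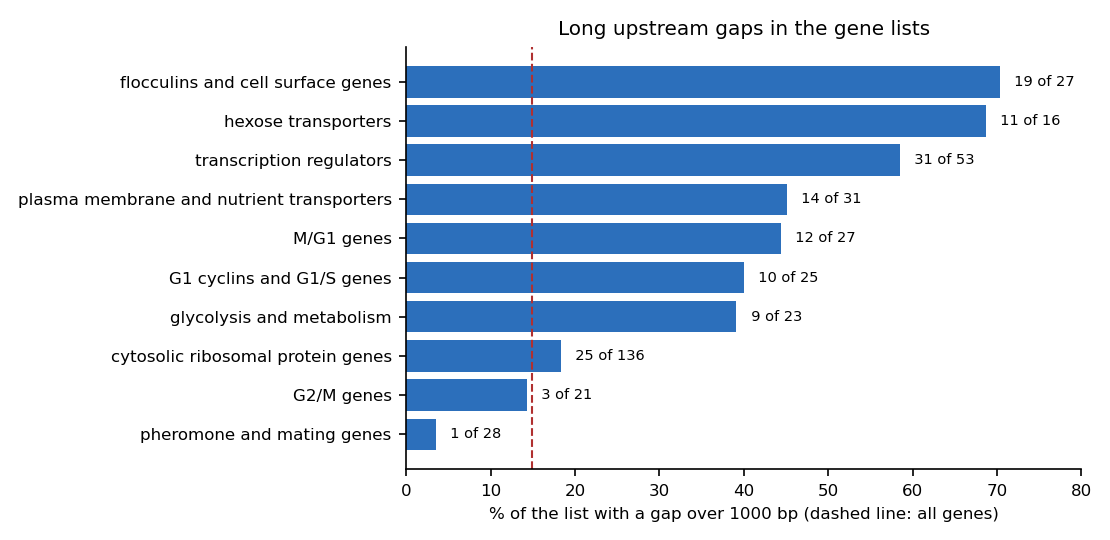
Share of each gene list with an upstream gap over 1000 bp (bars, with the number of long-gap genes of those with a gap), against all genes (dashed line at 14.9%). The bars run from 70.4% for cell surface genes to 3.57% for pheromone and mating genes. FLO11, listed as MUC1, is not counted among the cell surface genes.

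The upstream stretches that follow are shown because they carry the binding-site letters usually linked to the RNA patterns described further on. Each is the stretch of 150 bases between the listed transcription start and the far end of the gap with the most matches, read on the gene's strand from the R64 reference sequence of RefSeq, which is that of strain S288C and not of W303. Capitals mark matches on either strand. SCB (CACGAAA) is marked for HO at 725 to 874 bases before the start codon (chromosome IV, 48756 to 48905, minus strand), for CLN2 (XVI, 67096 to 67245, minus strand) and for TOS6 (XIV, 65286 to 65435, plus strand). MCB (ACGCGT) is marked for MCD1 (IV, 444279 to 444428, plus strand) and CLB6 (VII, 706814 to 706963, minus strand).
HO, SCB: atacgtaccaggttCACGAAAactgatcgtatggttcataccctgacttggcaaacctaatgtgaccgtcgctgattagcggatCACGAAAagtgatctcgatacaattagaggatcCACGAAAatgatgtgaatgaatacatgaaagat
CLN2, SCB: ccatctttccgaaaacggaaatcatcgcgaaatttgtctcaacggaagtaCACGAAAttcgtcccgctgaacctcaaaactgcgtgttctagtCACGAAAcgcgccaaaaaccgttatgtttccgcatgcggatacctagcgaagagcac
TOS6, SCB: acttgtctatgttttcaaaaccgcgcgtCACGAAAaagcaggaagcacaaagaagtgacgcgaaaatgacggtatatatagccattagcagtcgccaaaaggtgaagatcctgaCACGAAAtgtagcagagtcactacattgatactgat
MCD1, MCB: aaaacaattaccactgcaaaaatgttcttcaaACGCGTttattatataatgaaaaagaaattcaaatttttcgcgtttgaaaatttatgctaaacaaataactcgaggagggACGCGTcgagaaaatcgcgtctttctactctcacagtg
CLB6, MCB: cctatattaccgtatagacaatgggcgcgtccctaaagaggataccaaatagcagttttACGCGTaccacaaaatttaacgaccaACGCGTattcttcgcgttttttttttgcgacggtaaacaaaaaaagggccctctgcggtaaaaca

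The whole HO gap of 3083 bp held 8 SCB matches and that of CLN2 held 3. The pheromone response element (TGAAACA) is shown for PRM5 (IX, 141737 to 141886, minus strand), and the E-box read by the phosphate regulator Pho4 (CACGTG) for PHO5 (II, 431127 to 431276, minus strand).
PRM5, pheromone response element: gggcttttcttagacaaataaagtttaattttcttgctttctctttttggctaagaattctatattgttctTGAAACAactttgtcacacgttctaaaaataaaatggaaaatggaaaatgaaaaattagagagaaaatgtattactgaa
PHO5, E-box: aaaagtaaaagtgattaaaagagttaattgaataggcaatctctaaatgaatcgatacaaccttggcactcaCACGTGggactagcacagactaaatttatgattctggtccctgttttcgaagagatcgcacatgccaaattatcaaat

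The typical RNA level of long-gap genes was close to that of other genes, but the levels were more spread. RNA is given as the value the authors name TPM, and levels and ranges were taken on log2(value + 1), a scale that understates the change of low genes. The median level was 5.35 for the long-gap genes and 5.41 for the others. The quartiles of the long-gap genes lay at 3.98 and 6.75, against 4.48 and 6.58 for the others. Of the long-gap genes, 141 (17.0%) were among the 10% of all genes with the lowest mean RNA and 102 (12.3%) among the 10% with the highest. The 153 with a mean below 10 included FLO9 (lowest 0.203, median 0.322, highest 0.459 over the time points), the hypoxic mannoprotein gene DAN1 (0.0229, 0.134 and 0.219), the glycerol importer gene STL1 (0.252, 0.452 and 0.873) and IME1 (1.51, 2.18 and 2.78). FLO11, listed as MUC1, has a gap of 3618 bp that holds the noncoding RNA genes ICR1 and PWR1 and the gene YIR020C, and its RNA ran from 0.342 to 0.916 with a median of 0.564. At the other end stood the cell wall protein gene CCW12 (9456, 15091 and 16483), the ribosomal protein gene RPL32 (6187, 8763 and 10810) and the pyruvate kinase gene CDC19 (5423, 6925 and 8199). YML054C-A, YOR011W-A and YMR247W-A were listed at 0 at most time points. Reads of near-identical genes, such as HXT6 and HXT7, the FLO and TIR families and duplicated ribosomal protein genes, may have been divided among the copies, and their values are uncertain.

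RNA of long-gap genes varied over the cell cycle more often than that of other genes. A gene was counted as varying where its RNA ranged at least 2-fold both within 10 to 60 min (the first cycle) and within 70 to 130 min (the second). Over all genes this held for 272 of 5558 (4.89%). It held for 71 of the 829 long-gap genes (8.56%, exact binomial interval for counting error only 6.75 to 10.7%) and for 4.25% of the other genes. Among feature-free long-gap genes it held for 41 (9.49%), and among genes with a mean RNA of at least 10 for 10.1% of long-gap and 4.44% of other genes. The share went from 2.39% below 250 bp to 3.50% at 250 to 500 bp, 6.34% at 500 to 1000 bp, 8.29% at 1000 to 1500 bp and 7.26% at 1500 to 2000 bp, and stood at 11.2% at 2000 to 3000 bp and 8.97% above that. The intervals of the 4 classes over 1000 bp overlapped each other. Genes with a long gap on the downstream side only had a share of 4.66% (15 of 322). Within each of 4 classes of gene length from 500 bp and within the 3 classes of mean RNA from 10 upward, the share was higher for long-gap genes (9.51% against 5.42% at 10 to 50, 11.1% against 3.35% at 50 to 200, 9.45% against 3.62% above 200). Below a mean of 10 it was 1.96% against 2.43%. Within 30 kb of a chromosome end it was also lower for long-gap genes, at 2.56% (2 of 78) against 5.69% (7 of 123).

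**Figure D2:**
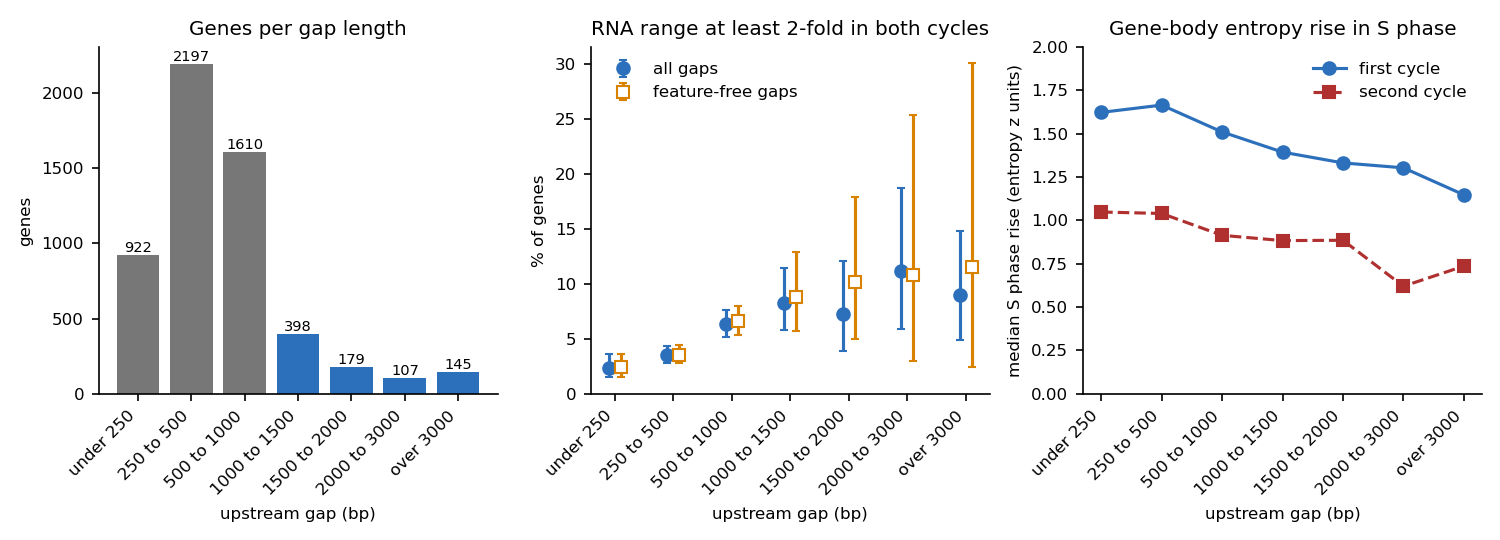
Left, genes in each class of upstream gap (blue, over 1000 bp). Middle, percent of genes with an RNA range of at least 2-fold in both cycles, with exact 95% binomial intervals for counting error only, for all gaps (circles) and feature-free gaps (squares). Right, median S phase rise of gene-body entropy in z units in the first (circles) and second (squares) cycle. The middle values go from 2.39% below 250 bp to between 7.26 and 11.2% in the 4 classes over 1000 bp, and the right-hand values from 1.62 to 1.15 in the first cycle.

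The varying long-gap genes were spread over the cycle, and their maxima within the first cycle lay at 10 min less often than those of varying genes with shorter gaps. In the first cycle, 25 of the 71 (35.2%) were highest at 10 min, 13 at 50 min and 21 (29.6%) at 60 min. Of the 201 other varying genes, 54.2% were highest at 10 min and 12.4% at 60 min. Among the feature-free members, 16 of 41 were highest at 60 min. In the second cycle the shares lay closer together, with 31 members (43.7%) and 50.7% of the others highest at 70 min, and 16 members (22.5%) and 13.9% of the others highest at 130 min. The difference in timing was not tested. The maximum of the second cycle followed that of the first by 50 to 70 min in 48 of the 71 members (67.6%), in 71.6% of the other varying genes and in 50.8% of all long-gap genes. The windows meet between 60 and 70 min, and 11 of the 21 members highest at 60 min had their second-cycle maximum at 70 min, so that both values belong to the same wave of RNA. For 7 genes the second-cycle maximum fell at 110 min, the time point with 1 RNA library.

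**Figure D3:**
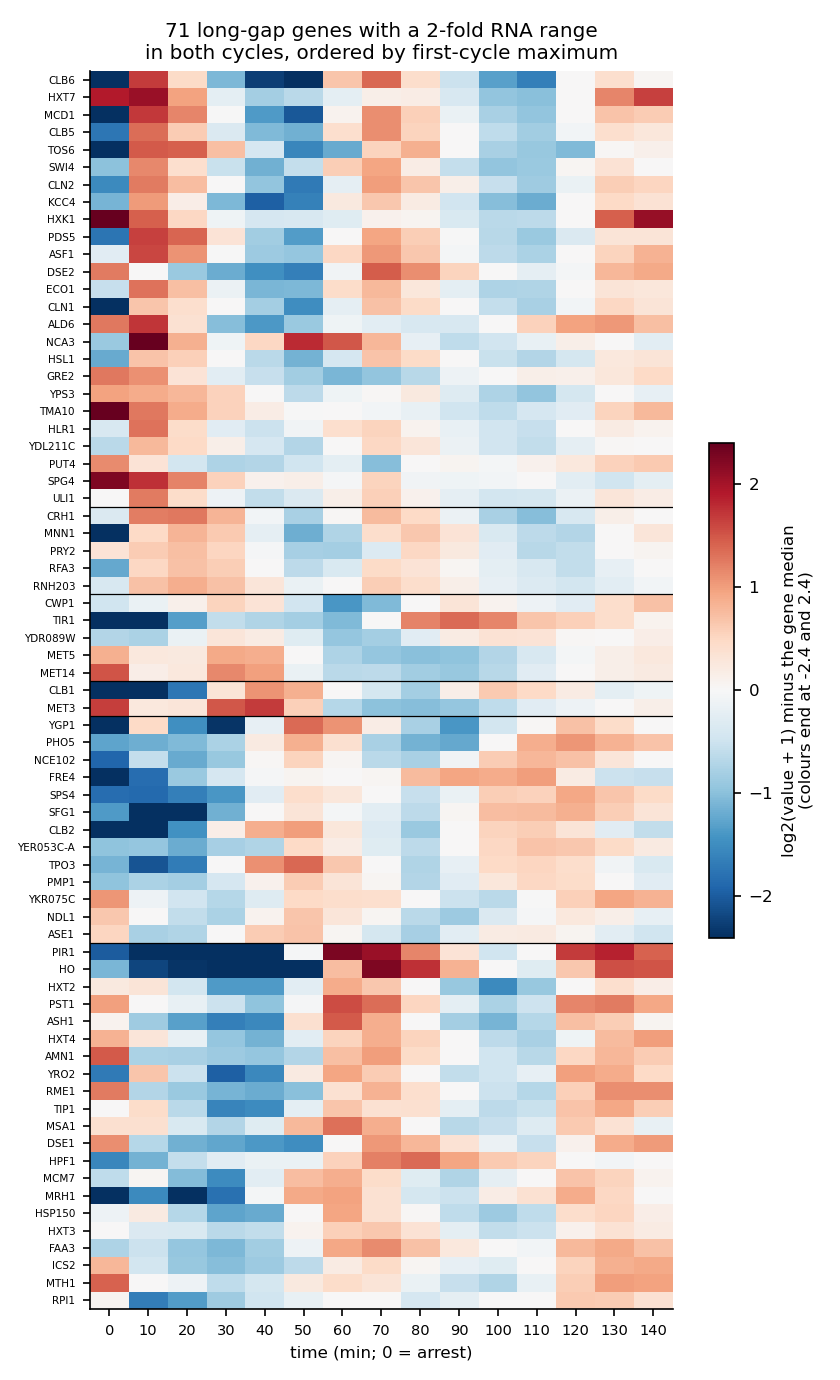
RNA of the 71 long-gap genes with a range of at least 2-fold in both cycles (rows) at the 15 merged time points (columns), as log2(value + 1) minus the gene's median. Black lines divide the rows by the time of the first-cycle maximum, from 10 min at the top (25 genes) to 60 min at the bottom (21 genes).

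The first group, highest at 10 min, held genes that drive the G1/S transition, and also genes already high at the arrest. Among the latter, TMA10, HXK1, SPG4 and HXT7 were above their later median by 2.87, 2.51, 2.26 and 2.02 on log2. The second-cycle maximum of SPG4 fell at 70 min and that of the others at 130 min. Whether their 10 min values carry over from the arrest was not tested. Of the G1/S list, 8 of the 10 members passed the threshold, as did 10 of its 15 genes with shorter gaps. The 8 include HO and MNN1, whose first-cycle maxima fell at 60 and 20 min. CLN2, a G1 cyclin gene, was at 27.6 at the arrest, 194 at 10 min, 24.3 at 50 min, 163 at 70 min and 44.2 at 110 min. Its paralogue CLN1 was at 6.34 at the arrest, 138 at 10 min and 143 at 70 min. The S phase cyclin gene CLB6, whose gap of 7207 bp holds a Ty3 element, went from 0.6 at the arrest to 76.9 at 10 min, 3.1 at 50 min and 61.7 at 70 min, and its partner CLB5 (gap of 3400 bp) from 8.52 to 79.9, 13.3 and 67.7. All 4 cyclin genes were low at the arrest, high at 10 and 70 min and low between. SWI4, which encodes the DNA-binding subunit of SBF, reached 60.4 at 10 min and 51.9 at 70 min over a lowest value of 11.3. MCD1, the cohesin subunit gene that carries a pair of MCB matches in the stretch shown above, was at 5.28, 202, 14.3 and 135 at 0, 10, 50 and 70 min. PDS5, a cohesin maintenance factor, and KCC4, a septin-associated kinase, had ranges of 7.87-fold and 7.91-fold in the first cycle and 3.55-fold in the second. TOS6, a cell wall protein gene and SBF target, had the lowest arrest value relative to its later median of all members, at 3.61 against 642 at 10 min and 418 at 80 min. CLN3, whose product acts upstream of SBF, did not pass the threshold, with 1.65-fold and 1.72-fold ranges.

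Of the G2/M list, 2 of the 3 members passed the threshold, as did 12 of its 18 genes with shorter gaps. The mitotic cyclin genes CLB1 (gap of 3849 bp) and CLB2 (2665 bp) were at 5.34 and 8.12 at the arrest. CLB1 reached 175 at 40 min and 128 at 100 min, and CLB2 172 at 50 min and 129 at 110 min. The remaining G2/M member, the forkhead gene FKH2, had ranges of 1.70-fold and 1.46-fold. In the same part of the cycle stood the repressible acid phosphatase gene PHO5, which ran between 16.4 and 86.4 with peaks of 75.2 at 50 min and 86.4 at 120 min, and YGP1, a secreted glycoprotein gene, with 340 at 50 min and 217 at 120 min. MRH1, a membrane protein gene with a gap of 3451 bp, went from 89.1 at the arrest to 1849 at 60 min.

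The 21 genes with their first-cycle maximum at 60 min, the last time point of that window, included 8 of the M/G1 list. For 9 of the 21, RNA was higher still at 70 min. Of that list 9 of the 12 members passed the threshold, as did 13 of its 15 genes with shorter gaps. PIR1, a cell wall glycoprotein gene, had the largest first-cycle range of all members, 57.9-fold, from 13.3 at 30 min to 829 at 60 min, and was at 624 at 130 min. PIR3 lies at the other end of the same 1581 bp and was highest at 0 and 10 min (46.0 and 61.7), with a median of 10.5. ASH1, the repressor of HO in daughter cells, went from 13.8 at 30 min to 127 at 60 min, with 82.5 at 70 min and 74.6 at 120 min. HO itself was at 5.39 at 40 min, 71.7 at 60 min, 205 at 70 min and 34.5 at 110 min, so that its highest value followed that of ASH1 by 10 min. DSE1, a daughter-cell separation gene, was at 225 at the arrest and between 35.9 (50 min) and 211 (70 min) later, with 103 at 60 min. AMN1, an inhibitor of mitotic exit (2238 bp), PST1, a cell wall protein gene, and RME1, a repressor of meiosis, also had their first-cycle maximum at 60 min, with first-cycle ranges of 3.12-fold, 5.73-fold and 2.93-fold. Among the hexose transporters, HXT2 (range 4.77-fold and 4.52-fold), HXT4 (3.19-fold and 3.15-fold) and HXT3 (2.32-fold and 2.35-fold) had their highest values of 10 to 130 min in the wave that spans 60 and 70 min. HXT7 was highest at 10 min (45.7) and at the arrest (40.8), and HXT13 stayed between 0 and 0.0379.

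**Figure D4:**
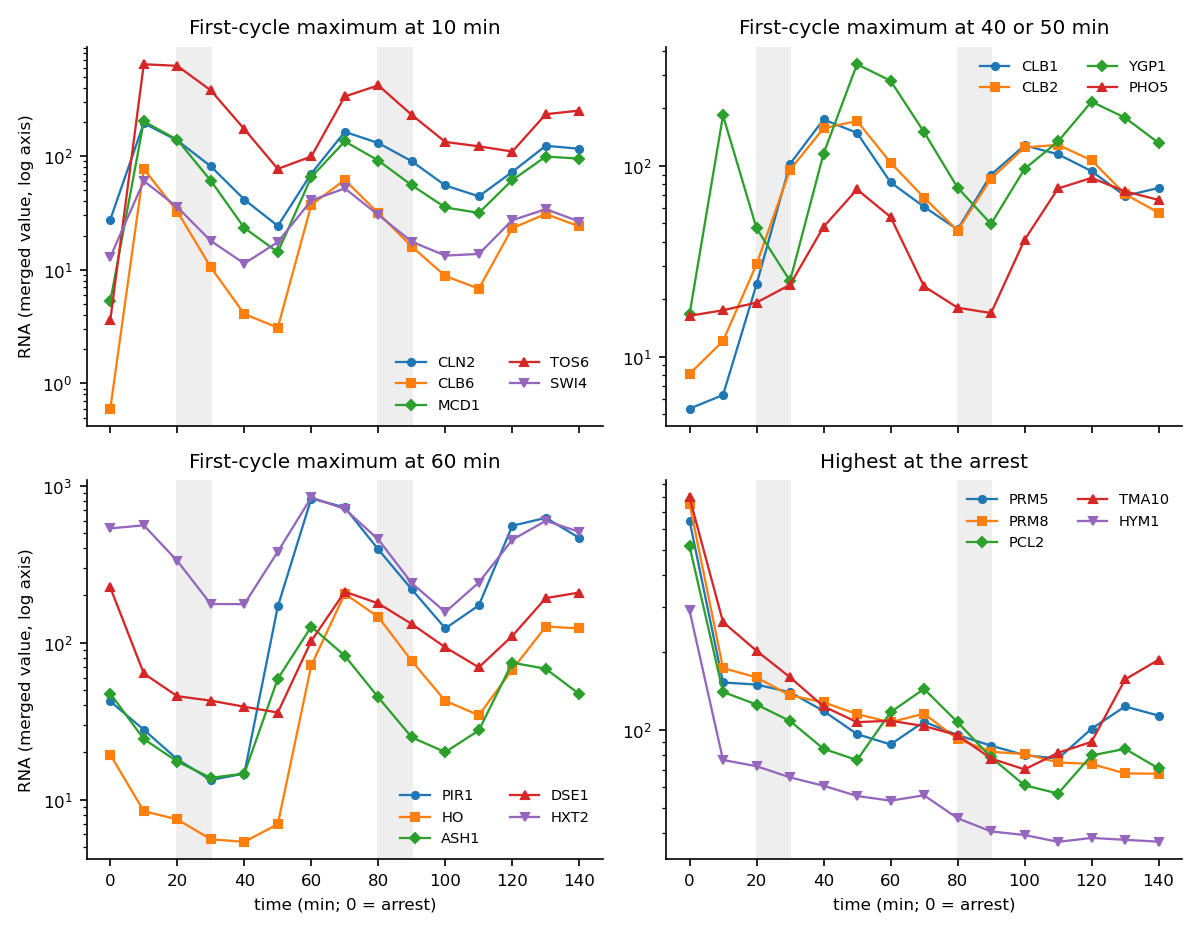
RNA (merged value, log axis) of 19 long-gap genes at the 15 time points, 0 min being the arrest, in 4 panels by the time of the first-cycle maximum or by a maximum at the arrest. Grey bands mark the S phase time points, 20 to 30 and 80 to 90 min. CLB6 goes from 0.6 to 76.9 within the first 10 min, PIR1 from 13.3 to 829 between 30 and 60 min, and PRM5 is at 647 at the arrest and between 77.5 and 153 later.

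Higher RNA at the arrest was also more frequent among long-gap genes, though not in every class of mean RNA and gene length. Of all genes, 11.3% were at least 2-fold higher at the arrest than at their median of 10 to 140 min and 8.06% at least 2-fold lower. Of the long-gap genes 133 (16.04%) were higher, against 10.4% of the other genes, and 68 (8.20%) were lower, against 8.04%. Among other genes with a long gap on the downstream side only, 14.0% were higher and 5.59% lower. The share of higher genes was 21.2% among feature-free members with a tandem neighbour and 14.9% among those with a divergent neighbour. It was 26.9% of the 78 members within 30 kb of a chromosome end and 18.7% of the other genes there. Cells at 0 min were held in pheromone while later cells were cycling, so that arrest and pheromone cannot be told apart.

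Among members with a mean RNA of at least 10, those with the highest arrest values relative to their later median were PRM8, TMA10, PRM5, PCL2 and HYM1. PRM8, a pheromone-regulated membrane protein gene, was at 753 at the arrest and between 67.8 and 174 later (7.51-fold over the later median). TMA10, which encodes a ribosome-associated protein, was at 796 and between 70.4 and 262 (7.31-fold). PRM5, a pheromone-regulated gene that also responds to cell wall stress, was at 647 and between 77.5 and 153 (6.14-fold). The G1 cyclin gene PCL2 was at 516 (6.03-fold) and showed a smaller maximum of 144 at 70 min. HYM1, a component of the RAM network of daughter-specific expression, was at 291 at the arrest, 76.6 at 10 min and 36.9 at 110 min. Among glucose-related genes, hexokinase 1 (HXK1) was at 300.2 at the arrest and 34.1 at 100 min, and the enolase gene ENO1 ranged from 367 to 2654. Among the regulators, TEC1, NRG2, CAT8 and NRG1 had log2 arrest differences of 1.88, 1.63, 1.52 and 1.44, and 8 of the 31 passed the 2-fold threshold upward and 1 (HMS2) downward. Only RME1 and ASH1 of these 31 varied in both cycles. None of the 25 long-gap ribosomal protein genes varied 2-fold in both cycles, nor did any of the 111 with shorter gaps.

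The RNA of divergent long-gap neighbours was less alike over time than that of closer divergent pairs. Over the 259 pairs, the median Pearson correlation of the log2 values across the 15 time points was 0.16, against 0.36 over 1191 divergent pairs of other genes. These are descriptions across time points that share their libraries. In 214 pairs neither gene varied, in 41 a single gene did and in 4 both did, against 1095, 84 and 12 of the 1191 other pairs. The 4 were ICS2 and AMN1 (r = 0.89), SPS4 and SFG1 (0.94), ULI1 and ECO1 (0.93) and NCA3 and ASF1 (0.36). PIR1 and PIR3 (-0.67) and MRH1 and PST2 (-0.86) moved oppositely, and TOS6 (range of 3.80-fold in its less variable cycle) faced the ribosomal protein gene RPL18B (1.22-fold). The 139 pairs with a feature-free gap gave a median of 0.17.

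The binding-site letters were counted on both strands in the 500 bases before every start codon and in the 500 bases beyond. In the near window, long-gap genes resembled all genes, with an MCB in 6.15% against 5.58%, an SCB in 7.96% against 7.25% and the stress response element AGGGG in 33.2% against 34.4%. TATAAA occurred there in 62.2% against 60.0% and TGAAACA in 11.2% against 11.7%. Of the 30 varying members with a first-cycle maximum at 10 or 20 min, 9 (30.0%) held an MCB, against 42.1% of all 159 such genes. Of the 34 with a first-cycle maximum at 50 or 60 min, 28 (82.4%) held TATAAA, against 67.1% of all 79 such genes. Of the 133 members higher at the arrest, 72 (54.1%) held AGGGG and 19 (14.3%) held TGAAACA, against 59.7% and 17.3% of all genes higher at the arrest. The groups of all genes compared here include the members.

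In the far window long-gap genes differed more. Runs of at least 10 A or T occurred in 18.9% against 8.33% of all genes, SCB in 8.93% against 5.92%, MCB in 5.07% against 3.31%, CACGTG in 7.60% against 5.22% and TATAAA in 50.7% against 39.1%. For most other genes this window reaches into the next gene, their median gap being 391 bp, so that the shares compare intergenic with partly coding sequence. The median G+C content of the far window was 37.2% for long-gap genes and 39.2% for all genes. The stretch of HO shown above lies beyond the near window.

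Nucleosomes in the bodies of long-gap genes were more disordered at every time point. The median entropy was 5.87 over the long-gap genes and 5.79 over the others, and 180 long-gap genes (21.7%) were among the 10% of all genes with the highest values. The difference of the medians was largest at the arrest, at 0.111, and smallest at 40 min, at 0.0659. By gap length the median was 5.78 below 250 bp, 5.77 at 250 to 500 bp, 5.84 at 1000 to 1500 bp and 5.92 above 3000 bp. Long-gap genes had the higher median within each of 4 classes of gene length (5.84 against 5.76 above 2500 bp) and each of 4 classes of mean RNA (5.90 against 5.83 below 10, 5.91 against 5.82 above 200). It was nearly the same for feature-free gaps (5.87), gaps with a tRNA gene (5.87) and gaps with an origin (5.88).

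The rise of entropy in S phase was smaller in long-gap genes. It was taken from z-scores of each gene across the 15 time points. It was the mean of 20 and 30 min less that of 0, 10, 50 and 60 min, and in the second cycle the mean of 80 and 90 min less that of 70, 110, 120 and 130 min. The median rise of long-gap and other genes was 1.33 and 1.60 in the first cycle and 0.83 and 1.01 in the next. In the first S phase entropy was higher in 95.1% of all genes and in 744 (89.7%) of the long-gap genes, and in the second S phase in 91.6% and in 706 (85.2%). The medians of the first cycle went from 1.66 at gaps of 250 to 500 bp to 1.51, 1.39, 1.33, 1.30 and 1.15 in the successive longer classes. At every distance class from the nearest origin up to 30 kb, long-gap genes had the smaller rise, with a difference between 0.23 and 0.39. Members with a tRNA gene in the gap had medians of 1.55 and 0.88 in the first and second cycle, and members with a feature-free gap 1.27 and 0.83.

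**Figure D5:**
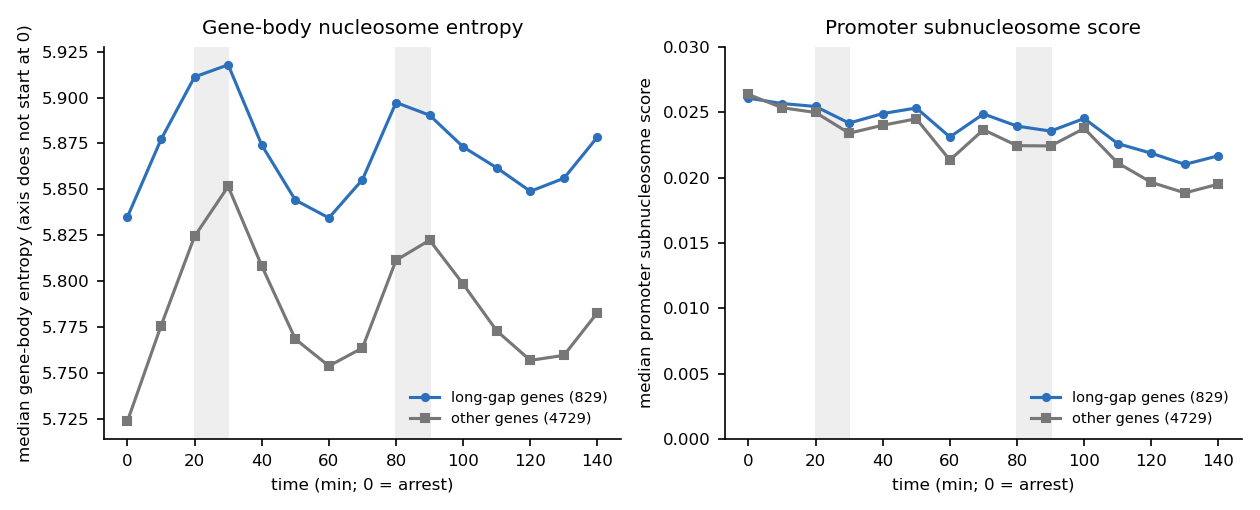
Median gene-body entropy (left, axis not from 0) and median promoter subnucleosome score (right) of 829 long-gap genes (circles) and 4729 other genes (squares) at the 15 time points, with the S phase time points in grey. Entropy of long-gap genes lies above that of the others throughout, by 0.111 at the arrest and 0.0662 at 30 min, and the promoter score of long-gap genes runs from 98.9% of that of the others at the arrest to 112% at 130 min.

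A minority of long-gap genes had lower entropy in both S phases. This held for 42 of them (5.07%) against 1.44% of the other genes. Of the 71 varying members 16 (22.5%) did so, against 3.43% of the remaining members and 6.97% of the other genes that varied, and 13 of the 16 had their first-cycle maximum at 50 or 60 min. PIR1 had values of -1.83 and -0.92 in the first and second cycle, MRH1 -1.32 and -1.04, HXT2 -1.25 and -0.69, YGP1 -0.88 and -0.79, and the spindle midzone gene ASE1 -0.87 and -1.38. In these genes RNA was high outside S phase, and entropy was higher at the RNA maximum than at the minimum in PIR1 (5.97 at 60 min, 5.66 at 30 min), MRH1 (6.04 and 5.88) and HXT2 (5.98 and 5.78). The lower values of PIR1 and MRH1 are those of 30 and 20 min. Choosing genes with lower S phase entropy thus largely set the direction of their contrast. No such values are given here for YGP1 and ASE1. Outside the varying genes, the lowest value common to both cycles was that of YKR041W (-1.63 and -1.43), whose RNA was low (median 3.12), and the alcohol dehydrogenase gene ADH1 had -1.76 and -0.09. The largest rises in both cycles were those of the tRNA-modifying enzyme gene DUS3 (2.01 and 2.11) and of YKL187C (2.13 and 2.01).

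Long-gap genes lay closer to origins, and the delay of their entropy was smaller. The delay, z-score at 30 min less that at 20 min, had a median of 0.19 in long-gap and 0.48 in other genes, and the second-cycle delay (90 less 80 min) 0.07 and 0.21. The median distance from the gene's midpoint to the nearest origin was 8093 bp and 11650 bp. Other genes with a long gap on the downstream side only (322) had delays of 0.10 and 0.09 and a median distance of 8891 bp. Neither trait was thus particular to long upstream gaps. Within 2500 bp of an origin the delays were -0.12 and -0.14, and at 5 to 10 kb 0.31 in long-gap and 0.13 in other genes. At 20 to 30 kb they were 0.70 and 1.25. Members with an origin in the gap had a delay of -0.21 and those without 0.29. Members with a tRNA gene in the gap had -0.03, and 0.20 for the second-cycle delay.

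The promoter subnucleosome score of long-gap genes differed little in level from that of the others. The median was 0.0241 against 0.0230, the highest class being gaps of 500 to 1000 bp (0.0256) and the lowest gaps below 250 bp (0.0157). Above 3000 bp it was 0.0204, and in the 26 feature-free gaps of that length 0.0124. Over time the median of long-gap genes went from 98.9% of that of the others at the arrest to 108% at 60 min and 112% at 130 min. The sum of the score over all genes varied between 119 and 157 among the time points, so that only the ratio between groups is compared over time here. ADH1 had the highest mean score of the members, 0.123 (up to 0.158 over the time points), followed by the phospholipase B gene PLB1 with 0.0840 and YBR201C-A, which shares its gap with the replicative helicase gene MCM7, with 0.0698.

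In the varying members the promoter score was mostly higher when RNA was high. Between the highest and the lowest RNA time point of 10 to 130 min, the score was higher at high RNA in 62 of the 71 (median log2 ratio 0.33), against 176 of the 201 other varying genes (0.29) and 70.6% of all genes (0.14). Gene-body entropy was higher in 57 (80.3%), against 82.6% of the other varying genes and 58.5% of all genes. The nucleosome score was lower in 58 (81.7%), against 81.6% and 62.1%. The promoter scores compared here were not corrected for their change over all genes. In the other genes the median log2 ratio of the score to each gene's mean was 0.145 at 10 min and -0.255 at 130 min. How far this drift enters the contrasts between high and low RNA was not tested. TOS6 had 0.0167 at 10 min and 0.0056 at 50 min, PIR1 0.0380 at 60 min and 0.0135 at 30 min, CLN2 0.0309 at 10 min and 0.0130 at 50 min, and CLB1 0.0362 at 40 min and 0.0152 at 10 min. HO had 0.0062 at 70 min and 0.0035 at 40 min, both low for its gap class. MCD1 (0.0486 and 0.0440), CLN1 (0.0177 and 0.0173) and PHO5 (0.0072 and 0.0066) showed small differences, on a measure whose replicate spread is unknown.

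The gene-body nucleosome score was slightly lower in long-gap genes, with a median of 0.0484 against 0.0496. On a log2 scale the S phase value less that of the flanking time points was 0.00 for long-gap genes and -0.02 for the others in the first cycle. The values of the next cycle were -0.02 and -0.03. Among the varying members, TOS6 had the lowest log2 ratio of the score between its highest and lowest RNA, -1.12, followed by MRH1 (-0.98). Of the cyclin genes CLB2 (-0.62) and CLB1 (-0.57) were lowest. HXT6 and HXT7 had the low entropies of 3.51 and 4.56 over the time points. The authors kept uniquely mapped fragments only, and the part of that step in these values was not tested.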

How the data were processed

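MNase-seq and RNA-seq reads of 59 libraries had been aligned to R64 by the authors (Bowtie 0.12.7 in the submitters' processing notes). For MNase-seq the authors used only fragments with a unique alignment, drew, within each replicate, the same number of each length at every time point and joined the replicates. All 4 measures deposited by the authors were treated as a score: RNA named TPM, whose columns summed to between 949828 and 1041385 over the genes, Shannon entropy of the nucleosome score over a gene-body window of unstated length, the nucleosome score, a cross-correlation with a model nucleosome, and the promoter subnucleosome score, whose window is not stated. Whether RNA counting used strand is not given in the sources used here. In the labels, the times of Replicate 1 after release lie 10 min after the aligned times, and 1 MNase-seq library (10 min, Replicate 2) is described as taken prior to release but treated as released.

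Gaps were computed from the listed genes, and their contents, origins and sequences from the RefSeq annotation and genome of R64 (5579 of 5587 annotated genes had the same coordinates). Python 3.11.15, numpy 2.4.6, scipy 1.17.1, pandas 2.3.3 and matplotlib 3.10.9 were used. The measures, the gap rule and the motif search were tested on simulated data. No test was run, since each time point is 1 column. Genes are not replicates, and medians and shares are descriptions. The genes named were those with the longest gaps, the largest ranges with a second peak 50 to 70 min after the first, the largest arrest differences, the highest promoter scores and RNA, the largest entropy changes, those at the threshold and the members of the lists. MUC1, VAM10, and the pairs and genes of lower S phase entropy named beside their counts were chosen after their values were seen. The members and lists were chosen with earlier results of these data known. Alternatives were other pseudocounts (0.1 and 5), folds (1.5 and 3), gap thresholds (1500 and 2000 bp), filters, scalings and gene sets. 1 of the motifs searched is not reported here.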

Additional observations from a re-analysis of the deposited data

How the results depend on the processing

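Of 107 alternatives, 85 kept the direction and, with an exception, stayed within the interval of the long-gap genes' value. The exception is the S phase rise in raw entropy, with differences of -0.0182 and -0.0108 in the first and second cycle. It is on another scale than the z-scores, so that only its direction can be compared. The difference in median RNA level (-0.06 on log2) was 0.24 among genes with a mean RNA of at least 10, 0.0283 over 30 kb from chromosome ends, -0.29 at gaps over 1500 bp and -0.30 at gaps over 2000 bp. The share of varying long-gap genes was 11.2% with a pseudocount of 0.1, 6.63% with 5, 21.6% at 1.5-fold and 2.65% at 3-fold, always above that of other genes (5.77%, 3.09%, 14.0% and 1.06%), and between 6.88 and 8.56% without single time points. The share higher at the arrest was 12.7% with a pseudocount of 5, against 7.99%. The share lower at the arrest passed narrowly below that of other genes in some alternatives. It was 6.51% against 6.53% with a pseudocount of 5 and 8.81% against 9.05% with columns scaled to the same upper quartile. At gaps over 2000 bp it was 7.94% against 8.04%. The promoter score difference of 0.00112 became -0.00119 at gaps over 2000 bp. The difference in S phase rise was -0.38 and -0.30 at gaps over 2000 bp in the first and second cycle, and -0.41 (without 20 min) to -0.18 and -0.20 to -0.11 (without 90 min) when single time points were left out. The difference in delay was -0.0639 and 0.00318 within 5 kb of an origin. The difference in the S phase ratio of the nucleosome score was 0.0119 at gaps over 2000 bp and 0.0144 for genes of at least 1000 bp. Origins lay in the gaps of 22.2% at over 2000 bp. The causes were not tested. No paired analysis was possible because the replicates are merged in every column. The depth of single genes is unknown, and for genes near an RNA of 0 the pseudocount sets the range.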
